A study of Mus musculus with 39 samples.

Results

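Gabra2, Gabra4, Gabra5, Gabra6, Gabrb1, Gabrb2 and Gabrd encode subunits of the GABA-A receptor, and their mRNA was followed through 13 groups of mouse cerebellar libraries. The 7 genes were taken by symbol from the Entrez identifiers of a count table of 24100 genes, in which 19 GABA-A receptor subunit genes are listed. Polyadenylated RNA had been sequenced as 75-base single-end reads in 39 libraries.

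The GABA-A receptor is a chloride channel built of 5 subunits and opened by GABA, the main inhibitory transmitter of the brain. Most receptors combine alpha and beta subunits with a gamma subunit, which places them at synapses, or with delta, which places them outside. In the cerebellum the alpha6 subunit (Gabra6) marks mature granule cells, where it joins delta (Gabrd) in receptors that carry the tonic, steady inhibition of these neurons.

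The animals were C57Bl/6J mice for all groups other than the Ezh1 cultures, whose strain is not labelled. TRAP (translating ribosome affinity purification) pulls down mRNA on ribosomes that carry the tagged protein Egfp-L10a. It was done in granule cell precursors isolated at postnatal day 7 (P7) from a line driven by Atoh1, also called Math1 (n = 4), and in whole cerebellar lysates of a Neurod1-driven line at P7, P12 and P21 (n = 5 each). Total cerebellar RNA gave 1 input library per age. Granule cells of P6 to P7 mice were taken before culture (DIV0, n = 2), after 2 days in vitro with the solvent DMSO (DIV2, n = 2), and after 5 days (DIV5) with DMSO (n = 2) or 100 nM UNC1999 (n = 2). UNC1999 inhibits EZH2 and EZH1, the enzymes that methylate histone H3 at lysine 27. A separate set of DIV5 cultures came from P7 mice that all carried Atoh1-Cre, with wild-type Ezh1 (wt, n = 5) or floxed Ezh1 (cKO, n = 4). The labels do not say whether replicates came from separate animals, so p-values measure the spread between these libraries.

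Depth ran from 12.1 M to 38.5 M counts per library. Levels are CPM, counts scaled to the same library total, given as mean ± SD. Fold changes come from edgeR's quasi-likelihood test with TMM scaling, as log2 fold change ± SE with Benjamini-Hochberg adjusted p, and a gene is called at an adjusted p under 0.05. The SE is the absolute log2 fold change divided by the square root of the test's F value. It can be too small where a group holds few counts. The TRAP libraries of the Neurod1 line held little of the 12 vascular and meningeal markers, 21.6 to 51.4 CPM in sum, but Purkinje cell markers summed to 463 to 1001 CPM. In culture the vascular and meningeal sum went from 831 to 840 CPM at DIV0 to 13350 to 14620 CPM at DIV5 with DMSO. Col1a1 alone made up 8028 CPM of that, and of the 12 markers 6 were called higher and 5 lower (median log2 change 0.27). All 10 microglia markers were called higher over the same span, from a sum of 72.9 to 73.2 CPM to one of 663 to 688.5 CPM. The mature granule cell markers of the same DIV5 libraries summed to 3712 to 3791 CPM. The part of these other cells in the results was not tested.

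Several of these genes are neighbours. On chromosome 11 (GRCm38, the build also called mm10) Gabra6 spans 42306437 to 42321072 and Gabrb2 42419515 to 42632591. Chromosome 5 holds Gabra2 from 70958392 to 71095849, Gabra4 from 71569734 to 71658308 and Gabrb1 from 71657921 to 72149572. Gabra5 lies on chromosome 7 from 57407669 to 57591016 and Gabrd on chromosome 4 from 155384979 to 155398098. Gabra4 and Gabrb1 overlap by 388 bases. Since strand use in the counting is not stated, reads from the overlap cannot be assigned with certainty.

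Promoter windows, from 250 bases before to 50 after the RefSeq start (GRCm38.p6), were listed for 6 of the 7 members. They are shown for Gabra6 and Gabrb2, which rose in the comparisons below over age, culture and treatment, and for Gabra2, which fell late, because they differ in CG dinucleotides, the bases that carry DNA methylation and that are dense in many promoters bound by Polycomb proteins. Each is written 5′ to 3′ on the gene's strand with CG in capitals. The windows are chr11:42321023-42321322 (minus strand) for Gabra6, chr5:71095800-71096099 (minus strand) for Gabra2 and chr11:42420190-42420489 (plus strand, the first of 3 listed) for Gabrb2.
Gabra6: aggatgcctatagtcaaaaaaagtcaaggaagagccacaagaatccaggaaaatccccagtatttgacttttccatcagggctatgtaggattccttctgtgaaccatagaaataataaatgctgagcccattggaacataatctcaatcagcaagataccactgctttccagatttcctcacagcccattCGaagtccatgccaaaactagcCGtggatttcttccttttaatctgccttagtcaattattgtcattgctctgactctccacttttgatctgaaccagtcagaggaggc
Gabra2: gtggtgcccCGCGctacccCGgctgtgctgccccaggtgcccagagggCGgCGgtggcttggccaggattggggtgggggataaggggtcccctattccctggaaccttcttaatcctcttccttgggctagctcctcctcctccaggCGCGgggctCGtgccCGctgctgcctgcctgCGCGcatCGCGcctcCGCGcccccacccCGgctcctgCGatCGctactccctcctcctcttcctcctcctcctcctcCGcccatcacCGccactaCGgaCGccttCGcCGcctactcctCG
Gabrb2: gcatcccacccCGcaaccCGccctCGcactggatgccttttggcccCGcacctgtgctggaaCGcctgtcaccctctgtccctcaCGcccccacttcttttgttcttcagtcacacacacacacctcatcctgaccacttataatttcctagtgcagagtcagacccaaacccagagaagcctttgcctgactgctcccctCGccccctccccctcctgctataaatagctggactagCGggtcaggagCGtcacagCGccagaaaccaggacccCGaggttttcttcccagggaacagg
The Gabra6 window held 2 CG, as few or fewer as in 23.3% of 32817 windows of this length. Gabra2 held 25, and 83.1% of windows have as many or fewer. Gabrb1, which was not called over age, held as many as Gabra2 in the first of its windows, 25, and 9 in the second. Gabrb2 held 11 in this window, Gabra4 12 and Gabra5 13, against a median of 7. The letters TGGCA, searched on both strands, occurred in the windows of Gabra6 and Gabrb1 and in 48.9% of all windows. All but the last of these letters lie in the arm TTGGC of the nuclear factor I palindrome. The full palindrome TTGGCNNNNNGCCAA was found in none of the members' windows and in 0.037% of all.

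Between the precursor line and the Neurod1 line at P7, all 7 members rose (7 of 7 called higher, where 72.4% of 14759 genes tested were called, 36.5% higher and 35.8% lower). Gabra6 was counted at 3.50, 1.70, 0 and 0 CPM in the 4 Math1 libraries and at 63.8, 42.7, 58.9, 27.2 and 55.5 CPM in the Neurod1 libraries. The groups did not overlap, and the 2 Math1 libraries at 0 were the shallower ones. A count of 3 in these equals 0.191 and 0.248 CPM, below the 3.50 and 1.70 CPM of the other 2. The fitted rise was 30.5-fold (4.93 ± 0.44, adjusted p = 1.91e-08), 4.24 on the log2 scale with Math1 replicates 1 and 2 alone and 5.87 without Math1 replicate 1. Against the limit of 3 counts in the replicates at 0, the Neurod1 mean of Gabra6 was at least 260-fold higher for replicate 3 and at least 200-fold for replicate 4. Gabrd, whose product pairs with alpha6, stood at 0.78, 0.23, 0.19 and 0 CPM against 9.88 ± 2.95 CPM (log2 4.76 ± 0.35, adjusted p = 1.75e-10; 5.80 without Math1 replicate 1). Gabrb2, a beta subunit of adult receptors, went from 3.26 ± 0.84 to 46.0 ± 13.6 CPM (3.84 ± 0.23, adjusted p = 7.33e-12).

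The other members rose less. Gabra2, an alpha subunit of many forebrain synapses, went from 2.42 ± 0.80 to 17.1 ± 3.86 CPM (2.88 ± 0.19). Gabra4, which like alpha6 can pair with delta, went from 9.87 ± 2.72 to 17.2 ± 1.28 CPM (0.81 ± 0.15). Gabra5 rose by 2.08 ± 0.41 from 0.21 CPM (2.68 without Math1 replicate 1), and Gabrb1 by 0.81 ± 0.21 from 0.93 CPM. The call of Gabrb1 was lost with Math1 replicates 3 and 4 alone (0.58, adjusted p = 0.0542). These 2 lines differ in driver and in starting material, isolated cells against lysate, and the parts of stage, line and material cannot be told apart. Purkinje cell markers summed to 60.03 to 89.1 CPM in the Math1 and 463 to 572 CPM in the Neurod1 libraries at P7. In bulk RNA, more cells of a type and more RNA per cell cannot be told apart.

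**Figure D1:**
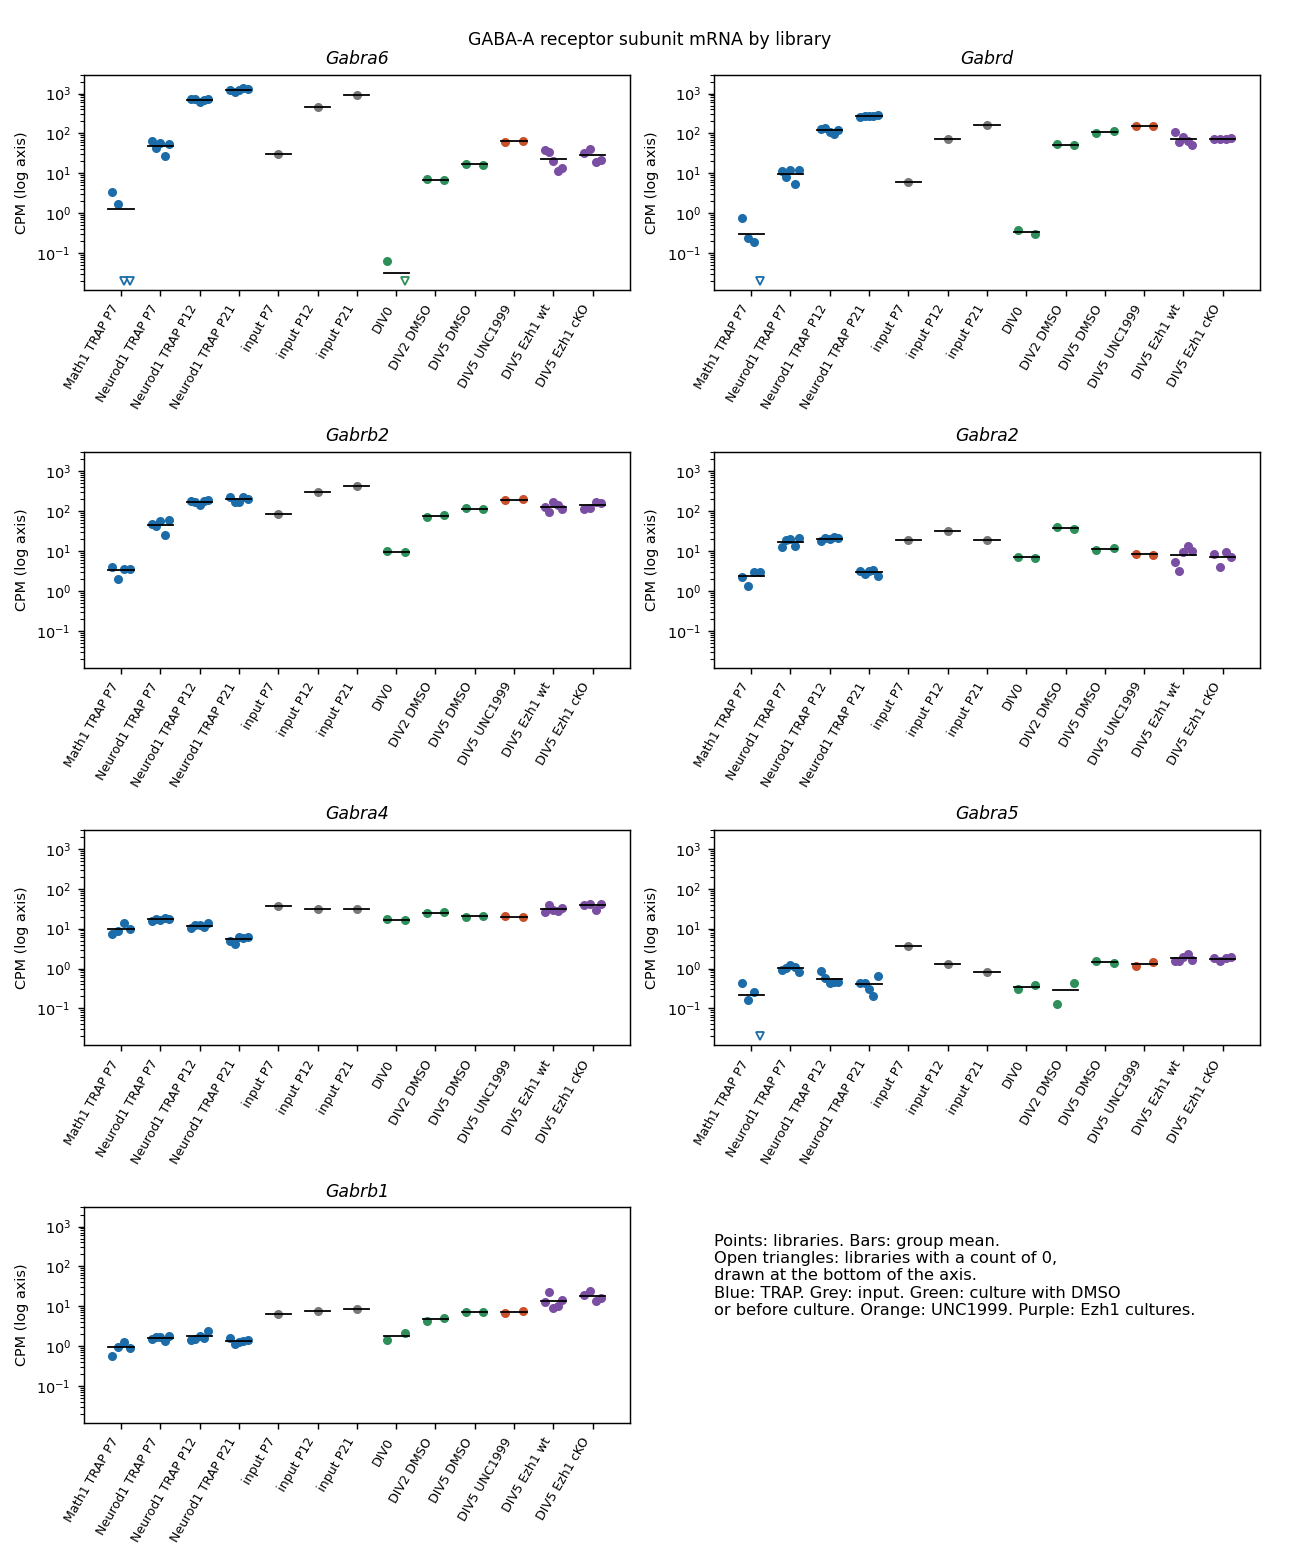
CPM of each member in every library (log axis) for the 13 groups, with points for libraries, bars for group means and open triangles for a count of 0. Gabra6 and Gabrd climb through the TRAP groups, Gabra2 is lowest at P21 among the Neurod1 TRAP groups, and Gabrb1 is lower in TRAP than in input libraries at each age.

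From P7 to P21 in the Neurod1 line Gabra6, Gabrd and Gabrb2 rose and Gabra2, Gabra4 and Gabra5 fell. These counts, 3 higher and 3 lower of 7, lay near the shares over all genes (81.5% called, 38.9% higher and 42.5% lower). The median log2 change of the 7 was -0.07, beside -0.05 over all genes tested. Markers of other cells moved over the same span: of the 8 markers for Purkinje cells, 6 rose and 1 fell (mean sum 521 CPM at P7 and 931 CPM at P21), and 8 of 12 oligodendrocyte markers were higher and 3 lower (365.5 and 929 CPM). The 3 unipolar brush cell markers summed to 131 and 1513 CPM, of which Calb2 made up 1415 CPM at P21, with 2 higher and 1 lower. In the P21 input Calb2 stood lower than in TRAP, at 581 CPM, while the Purkinje cell sum stood higher, at 5436 CPM. The part of other cells in the members' changes was not tested. By step, 3 members were higher and 2 lower at P12 than at P7 (68.2% of genes called, 31.5% higher and 36.7% lower), and 2 were higher and 2 lower at P21 than at P12 (65.1% called, 32.4% higher and 32.7% lower). Gabra6 stood at 49.6 ± 14.8 CPM in the P7 libraries, at 700.0 ± 61.7 CPM in those of P12 and at 1253 ± 110.0 CPM in those of P21 (n = 5 each). No library of one age overlapped the next. Its rise was 3.84 ± 0.31 to P12 (adjusted p = 5.97e-09) and a further 0.99 ± 0.28 to P21 (adjusted p = 0.00482), and the second step was not called by DESeq2 (1.01, adjusted p = 0.177). Gabrd ranged from 5.47 to 12.1 CPM in the P7 libraries, from 96.6 to 139.9 CPM in the P12 and from 261 to 292 CPM in the P21 libraries. It rose by 4.98 ± 0.19 over the whole span (adjusted p = 1.03e-15) and by 1.37 ± 0.16 between P12 and P21 (adjusted p = 2.49e-07). Gabrb2 reached 172 ± 17.0 CPM at P12 and 198 ± 26.3 at P21, and only its first step was called (1.93 ± 0.17, adjusted p = 2.13e-09, against 0.35 ± 0.16, adjusted p = 0.0572). DESeq2 called the second step of Gabrb2 as well (0.37, adjusted p = 0.0458).

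Gabra2 dropped in the second step. Its libraries spanned 12.5 to 20.8 CPM at P7, 18.03 to 22.03 CPM at P12 and only 2.36 to 3.41 CPM at P21. The P21 libraries all lay under those of both earlier ages, which overlapped each other. Between P12 and P21 Gabra2 fell by 2.67 ± 0.16 on the log2 scale (6.34-fold lower, adjusted p = 5.91e-12), after a difference of 0.29 ± 0.15 that did not pass (adjusted p = 0.085; 0.34 and 0.0438 with DESeq2). Gabra4 fell in both steps, from 17.2 ± 1.28 to 11.9 ± 1.45 and 5.44 ± 0.94 CPM (2.79-fold lower at P21 than at P7, adjusted p = 1.48e-09). Gabra5, best known from hippocampal neurons, went from 1.02 ± 0.15 to 0.40 ± 0.16 CPM (2.22-fold lower, adjusted p = 0.00207). Gabrb1 stayed between 1.17 and 2.42 CPM at all 3 ages with no change called (-0.07 ± 0.18 from P7 to P21, adjusted p = 0.743).

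Ratios within a library need no scaling and were tested by exact two-sided permutation over libraries, with adjustment over the 9 ratio tests made. Counts of Gabra6 to Gabra2 had a geometric mean ratio of 2.85 at P7, 34.2 at P12 and 432 at P21 in the Neurod1 line. From P7 to P21 the ratio rose 152-fold (exact p = 0.00794, the smallest that 5 against 5 can give, adjusted p = 0.0119). Gabrb2 to Gabrb1 rose 5.28-fold with the same p, and neither ratio overlapped between the ages. Between the Math1 and Neurod1 lines the same ratios rose 22.1-fold and 7.85-fold (exact p = 0.00794 each). The Gabra6 to Gabra2 value depended on the added 0.5 counts, and was 2.89 on the log2 scale with 5 added, in place of 4.47.

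Per kilobase of the longest coding transcript, Gabra4 and Gabra6 traded places among the 4 alpha members. Gabra4 held 70.7% of their summed CPM per kb in the Math1 line, 16.1% at P7 in the Neurod1 line and 0.26% at P21. Gabra6 held 14.96% in the Math1 line, where the 4 libraries ran from 0 to 37.5%, and 71.6%, 97.7% and 99.6% at P7, P12 and P21 in the Neurod1 line. Gabra2 held 12.2% in the Math1 line and 0.10% at P21. In culture Gabra2 held 41.4% at DIV2, Gabra4 39.8% and Gabra6 18.1%, and the libraries of the first pair overlapped (39.2 to 43.65% and 37.9 to 41.7%). At DIV5 with DMSO Gabra6 held 47.9% and Gabra4 34.95%. The order in culture depends on the length used. With the median transcript length, a choice made after seeing the data, Gabra4 led at both times, with 52.9% beside 32.3% for Gabra2 at DIV2 and 47.6% beside 38.7% for Gabra6 at DIV5. The TRAP order was kept, with Gabra4 at 79.5% in the Math1 line and Gabra6 at 64.8%, 97.1% and 99.4% in the Neurod1 line.

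**Figure D2:**
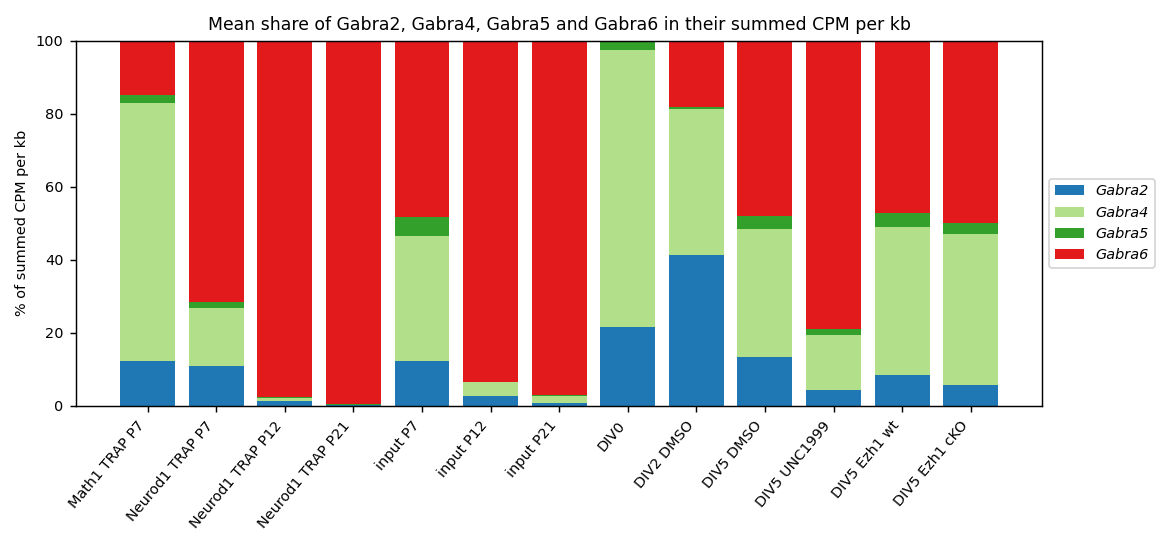
Mean share of Gabra2, Gabra4, Gabra5 and Gabra6 in their summed CPM per kb, stacked to 100%, by group, with the longest coding transcript as length. Gabra6 takes 99.6% at P21 in TRAP and 47.9% at DIV5 with DMSO.

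Against the input at the same ages, Gabra6 and Gabrd were enriched on tagged ribosomes and the other 5 members were depleted (2 higher and 5 lower of 7, beside 77.8% of 15479 genes called, 36.6% higher and 41.2% lower). Gabra6 had input levels of 30.9, 471 and 921 CPM in order of age, and was 0.96 ± 0.16 higher in TRAP on the log2 scale with age in the model (adjusted p = 2.8e-05). Gabrd was higher by 1.13 ± 0.16 (adjusted p = 4.04e-06). Gabrb1 was the most depleted member, at 6.52, 7.81 and 8.72 CPM in the inputs (-1.89 ± 0.13, adjusted p = 2.38e-10). Gabra4 was lower by 1.30 ± 0.15, with inputs at 36.7, 31.03 and 30.4 CPM. Gabra2 was lower in TRAP by 0.93 ± 0.27 (adjusted p = 0.00434), but that rested on the P21 input at 18.7 CPM: without it the value was -0.06 (adjusted p = 0.764). Each age has 1 input, and scaling by library size alone shifted the median of all genes by -0.40 here and took the share of higher calls from 47.1% to 25.6%. The 11 Bergmann glia and astrocyte markers summed to 3010 to 3331 CPM in the inputs and to 445 to 794 CPM in the Neurod1 TRAP libraries.

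In culture, 6 of 7 members were higher at DIV2 than at DIV0 and none was lower (71.3% of 15978 genes called, 36.4% higher and 35% lower). Gabra6 had a count of 1 and 0 in the DIV0 libraries and stood at 7.05 and 6.79 CPM at DIV2 and 17.4 and 16.4 CPM at DIV5. Summed over libraries the DIV5 to DIV0 ratio of Gabra6 was 655, with a 95% interval of 117 to 25900 (exact Clopper-Pearson on the counts, counting error only). Gabrd was 0.38 and 0.30 CPM at DIV0, 53.2 and 52.3 at DIV2 and 103 and 113 at DIV5. Its rise was 7.31 ± 0.14 by DIV2 (adjusted p = 6.96e-15) and 0.89 ± 0.06 after that (adjusted p = 8.38e-09). The DIV0 libraries held 13 counts of Gabrd in sum, so the first SE understates the counting error. Summed over libraries the DIV5 to DIV0 ratio of Gabrd was 325, with a 95% interval of 190 to 610 (counting error only). Gabrb2 went from 9.72 and 9.60 CPM to 72.4 and 81.0 and then 118 and 115 (3.02 ± 0.08 and 0.46 ± 0.06). Between these groups no libraries of these genes overlapped.

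Gabra2 passed through a peak. It was 6.96 and 6.82 CPM at DIV0, 40.2 and 34.9 at DIV2 and 10.3 and 12 at DIV5. It rose by 2.48 ± 0.11 (adjusted p = 7.17e-11) and fell by 1.89 ± 0.11 on the log2 scale (adjusted p = 1.5e-09). Gabra4 moved the same way but less, at 16.9 ± 0.30, 25.3 ± 1.11 and 20.5 ± 0.92 CPM, and its DIV5 level was not called against DIV0 (0.17 ± 0.09, adjusted p = 0.0932). With scaling by library size alone, edgeR called Gabra4 higher at DIV5 than at DIV0 (0.29 ± 0.09, adjusted p = 0.01). From DIV2 to DIV5, 5 members were higher and 2 lower (66.7% of genes called, 31.1% higher and 35.7% lower), and from DIV0 to DIV5, 6 were higher and none lower (78.3% called, 40.2% higher and 38.2% lower). Gabra5 was 0.31, 0.39, 0.13 and 0.44 CPM in the DIV0 and DIV2 libraries and 1.51 and 1.35 at DIV5 (2.30 ± 0.46 after DIV2, 1.6 without DIV2 replicate 1 and 3.34 without DIV2 replicate 2). Gabrb1 rose from 1.44 and 2.13 CPM to 7.18 and 7.24 at DIV5 (1.86 ± 0.20, adjusted p = 6.33e-07). Its last step (0.47 ± 0.17, adjusted p = 0.0216) was not called by DESeq2 (adjusted p = 0.1), nor without DIV2 replicate 1 (adjusted p = 0.118) or either DIV5 DMSO library (0.0727 and 0.0686). The astrocyte sum of these cultures rose from 878 to 893 CPM at DIV0 to 2445 to 2533 CPM at DIV5.

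**Figure D3:**
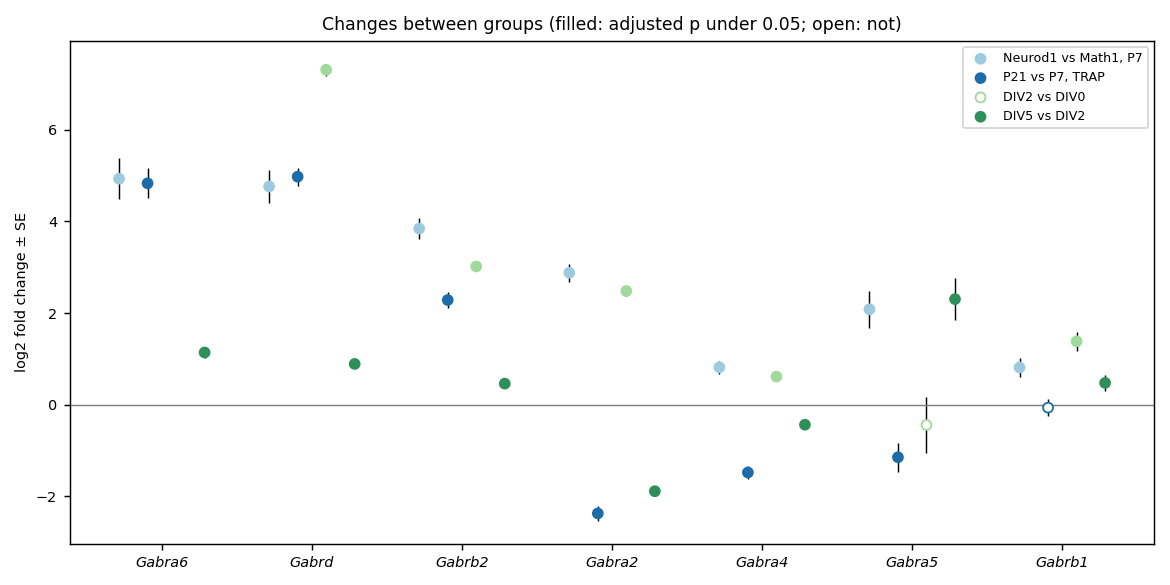
log2 fold change ± SE of each member for Neurod1 against Math1 TRAP at P7, P21 against P7 in Neurod1 TRAP, DIV2 against DIV0 and DIV5 against DIV2 (filled, adjusted p under 0.05). Gabra2 and Gabra4 are higher in the Neurod1 than in the Math1 line and at DIV2 than at DIV0, and lower at P21 than at P7 and at DIV5 than at DIV2; Gabra6 from DIV0 to DIV2 is left out because DIV0 holds a count of 1.

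Gabrd at DIV5 with DMSO (108 ± 7.08 CPM) lay within the range of P12 TRAP (96.6 to 139.9 CPM), while Gabra6 was 16.9 ± 0.70 CPM against 602 to 745. Counts of Gabrd to Gabra6 had a geometric mean ratio of 6.37 at DIV5 and 0.17 at P12. In the separate Ezh1 wt cultures it was 3.38. When the change from DIV0 to DIV5 was tested against that from Math1 TRAP at P7 to Neurod1 TRAP at P12, 2 of 7 members differed, both rising less in culture (61.1% of 16199 genes called, 28.9% with a larger and 32.2% with a smaller change). The difference was -2.62 ± 0.28 for Gabra2 (adjusted p = 7.09e-07) and -2.33 ± 0.22 for Gabrb2 (adjusted p = 2.13e-07). Gabra2 was 6.89 CPM at DIV0 against 2.42 in Math1 TRAP, and 11.2 at DIV5 against 20.5 in P12 TRAP. At DIV2 it stood at 37.5 CPM. Gabrb2 was 9.66 CPM at DIV0 against 3.26 in Math1 TRAP, and 116 at DIV5 against 172 in P12 TRAP. Both differences thus include the higher starting levels at DIV0. Gabra6 gave 0.15 ± 1.62, an SE too wide to compare the changes, since both starting groups hold libraries at 0. Total RNA and ribosome-bound RNA differ between the settings, and the TRAP change also goes between driver lines and from isolated cells to lysate. These cannot be told apart from culture.

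UNC1999 raised Gabra6, Gabrb2 and Gabrd and lowered Gabra2 (3 higher and 1 lower of 7, beside 11.9% of genes called, 6.36% higher and 5.53% lower). Gabra6 was 17.4 and 16.4 CPM with DMSO and 60.9 and 65.0 CPM with UNC1999, a 3.73-fold rise (1.90 ± 0.09, adjusted p = 1.09e-07). Leaving out any of the 4 libraries gave 1.84 to 1.96. Gabrb2 went from 118 and 115 to 186 and 196 CPM (0.72 ± 0.06, adjusted p = 1.22e-05). Gabrd went from 103 and 113 to 156 and 156 CPM (0.53 ± 0.06, adjusted p = 4.55e-05). The treated libraries of all 3 lay above the DMSO libraries. With 2 libraries a group this says little, and the share of all genes that separate so was not counted. Gabra2 was 10.3 and 12 CPM with DMSO and 8.58 and 7.95 with UNC1999 (-0.45 ± 0.12, adjusted p = 0.0276). That call was lost with DESeq2 (adjusted p = 0.0917) and without DMSO replicate 2 (0.193), UNC1999 replicate 1 (0.0626) or UNC1999 replicate 2 (0.191).

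Gabra4, Gabra5 and Gabrb1 were not called under UNC1999 (-0.05 ± 0.09, -0.10 ± 0.31 and -0.01 ± 0.15). Both chromosome 11 members were thus higher, and of the 3 on chromosome 5 none was. The share of Gabra6 among the alpha members per kilobase went from 47.9% to 79.1%, and that of Gabra4 from 34.95% to 15.05%. With the median transcript length they went from 38.7% to 71.7% and from 47.6% to 23.0%, so that Gabra4 led without the compound. Counts of Gabrd to Gabra6 had a geometric mean ratio of 6.37 with DMSO and 2.48 with UNC1999. At DIV5 with UNC1999 Gabra6 stood at 62.9 ± 2.88 CPM, beside 700.0 ± 61.7 CPM in P12 TRAP. Mature granule cell markers summed to 5168 to 5210 CPM with UNC1999 against 3712 to 3791 with DMSO, with 7 of 10 called higher and none lower. Bergmann glia and astrocyte markers summed to 2014 to 2226 CPM against 2445 to 2533, with 7 of 11 lower and none higher. Vascular and meningeal markers summed to 11390 to 11860 against 13350 to 14620, with 2 of 12 lower and none higher. Their part in these changes was not tested.

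**Figure D4:**
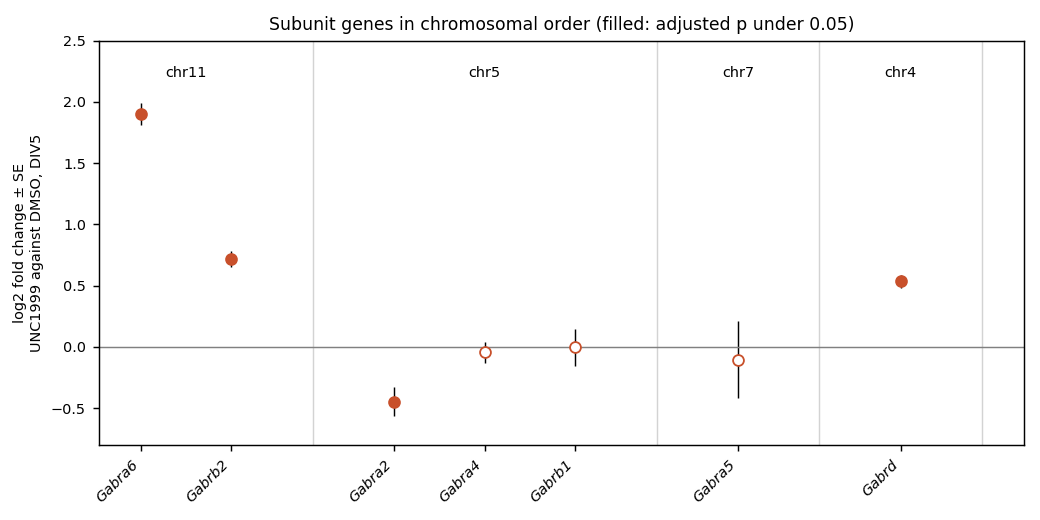
log2 fold change ± SE under UNC1999 for the 7 members, grouped by chromosome (filled, adjusted p under 0.05). Gabra6 and Gabrb2 on chromosome 11 lie at 1.90 and 0.72, and no chromosome 5 member is called higher.

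In the Ezh1 cultures none of the 7 members was called (0% of 14461 genes called by edgeR's quasi-likelihood test, 169 genes and no member at an unadjusted p under 0.05, and 1 gene called by DESeq2). Ezh1 itself was 40.8 to 49.9 CPM in wt and 33.8 to 36.5 CPM in cKO, which did not overlap, but the fall of 0.34 ± 0.09 was not called (adjusted p = 1). Which Ezh1 exons the floxed allele removes is not stated, so gene counts need not show the deletion. Gabra6 was 37.4, 34.6, 20.2, 11.3 and 13.3 CPM in wt and 32.02, 40.02, 19.6 and 21.9 CPM in cKO. In both genotypes replicates 1 and 2 lay above all of replicates 3 to 5, while the genotypes overlapped. The cKO difference of Gabra6 was 0.26 ± 0.42 (adjusted p = 1), -0.03 in replicates 1 and 2 alone and 0.48 in replicates 3 to 5 alone. The main Ezh1 fit, and the ratio and UNC1999 minus cKO tests below, ignored the 2 sets of replicates. The difference between the sets therefore stays in their error. With the replicate number as a block no member was called either. In the blocked fit Gabra2 was 0.00 ± 0.23 and Gabrd -0.07 ± 0.14, against -0.17 ± 0.40 and 0.00 ± 0.22 without the block.

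The same 2 sets of libraries differed in other cells. Replicates 1 and 2 summed to 7198 to 14060 CPM in astrocyte and 380 to 533 CPM in microglia markers, and replicates 3 to 5 to 3139 to 7368 and 38.2 to 67.7 CPM. Vascular and meningeal markers summed to 8849 to 12080 CPM in the first set and 5033 to 7951 CPM in the second. Mature granule cell markers went the other way, at 2551 to 3092 CPM in the first set and 4031 to 5377 CPM in the second, although Gabra6 was higher in the first. The part of these cells in the levels of the members was not tested. Gabrb1 was 13.1 to 23.6 CPM in the first set and 8.95 to 16.4 in the second, and over the 9 libraries its log2 level had r = 0.93 with the astrocyte sum, a description of libraries that share these sets. Gabra2 was 3.22 to 8.43 CPM in the first set and 7.18 to 13.2 in the second. Gabrb2 was 94.1 to 166.8 CPM in wt and 112 to 171.7 CPM in cKO, and Gabra4 30.7 ± 4.91 and 38.1 ± 5.62 CPM, with overlap in both. Gabrd in cKO spanned 71.3 to 75.8 CPM inside the wt range of 51.3 to 107.9 CPM. Neither ratio passed between genotypes (Gabra6 to Gabra2 0.46 on the log2 scale, exact p = 0.603, adjusted p = 0.679; Gabrb2 to Gabrb1 -0.32, exact p = 0.508, adjusted p = 0.653). The UNC1999 effect minus the Ezh1 cKO effect was 1.65 ± 0.70 for Gabra6, unadjusted p = 0.0375 and adjusted p = 1 in edgeR's test. In that test none of the 7 members was called (0% of 15453 genes; 247 genes and 2 members at an unadjusted p under 0.05; 6 genes higher and 1 lower by DESeq2, no member among them).

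**Figure D5:**
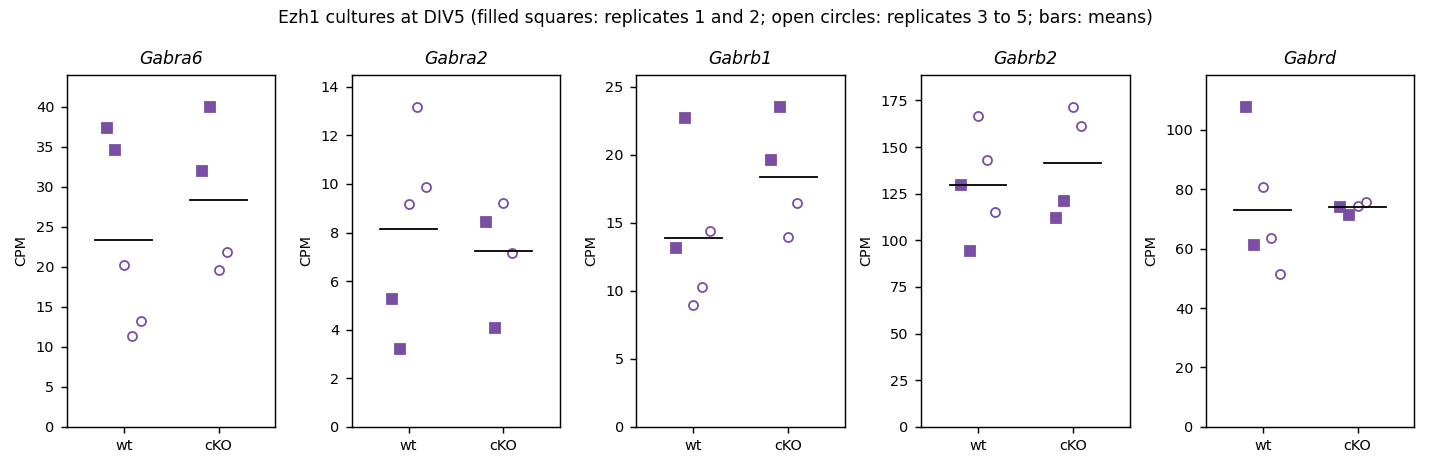
CPM of 5 members in the 9 Ezh1 cultures by genotype, with filled squares for replicates 1 and 2, open circles for replicates 3 to 5 and bars for means. Gabra6 separates the 2 sets of replicates (32.02 to 40.02 against 11.3 to 21.9 CPM) in both genotypes.

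Partner genes were counted in 3 lists. At P21 against P7, 81.5% of all genes were called (38.9% higher and 42.5% lower), and the share called in each list lay near that. Under UNC1999 11.9% of all genes were called (6.36% higher and 5.53% lower). Of 5 cation-chloride cotransporters, 4 were higher and 1 lower at P21 than at P7 (median log2 change 0.68, beside -0.05 for all genes). Slc12a5, the potassium-chloride cotransporter that lowers neuronal chloride and makes GABA inhibitory, went from 50.7 ± 11.4 to 292 ± 24.5 CPM (2.70 ± 0.25, adjusted p = 5.6e-09), and under UNC1999 it rose by 0.82 ± 0.07 (adjusted p = 2.11e-05). Slc12a7 fell by 2.88 ± 0.28 from P7 to P21. Of 18 anchoring and trafficking genes, 10 were higher and 6 lower at P21 (median 0.33), and 7 higher and 1 lower under UNC1999 (median 0.13, beside 0). Insyn1, which encodes a protein of inhibitory synapses, rose by 2.14 ± 0.08 to P21 and by 0.52 ± 0.10 under UNC1999. Gphn, the scaffold gephyrin, rose by 0.31 ± 0.06 under UNC1999. Of 11 tested genes of GABA synthesis, transport and GABA-B receptors, 6 were higher and 3 lower at P21, among the former the receptor gene Gabbr1 (1.76 ± 0.11), and of 12 tested under UNC1999, 5 were higher and 4 lower. Those lower include Gad1 (-0.32 ± 0.07), the enzyme that makes GABA, and Slc32a1 (-0.49 ± 0.08), its vesicle transporter, which also stand in the list of interneuron markers, 4 of 8 of which were lower under UNC1999 and none higher. In cKO no gene of these lists was called.

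Across the 13 group means of log2(CPM + 0.5), among 11670 genes, the pattern most like that of Gabra6 was Cbln3 (r = 0.989), ahead of Eno2 and Atp6v1g2. The nearest to Gabrd were Il16, Syngr1 and Gls2, and to Gabrb2 Speg, Slc12a5 and Nrg2. Gabrb1 was nearest to Kcnj10 (r = 0.972), Slc4a4 and Fam214b. Gabra4 was nearest to Pfkfb4 (r = 0.975), Srgap1 and Rgp1, and Gabra2 to Dbndd1, Srpk2 and Zfp729b, at 0.927 to 0.935. Gabra5 had the weakest matches, among them Pdk1 at 0.868 and Sphk1 at 0.862. These correlations describe group means and carry no test.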

How the data were processed

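Values for the 39 libraries were deposited as estimated counts of each gene, already rounded to whole numbers. Salmon 0.8.2 and the build mm10 are named in the submitters' processing notes, without their roles, and the annotation and strand setting are not given in the sources used here. Entrez identifiers were matched to symbols for 24045 of 24100 genes. In the Ezh1 libraries 1041 genes are blank, among them Gabra3, Gabre and Gabrq, and these libraries were fitted without them. The members and lists were chosen with earlier results of these data known. Named are all 7 members, genes among the 4 with the lowest adjusted p in each partner list and comparison, and the 3 genes most like each member. Some genes, and values that need them, are not reported here.

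edgeR 4.0.16 (R 4.3.3) fitted quasi-likelihood models with TMM scaling after filterByExpr (minimum count 10, total 15), once for TRAP, once for TRAP with inputs, once per culture set and once for each difference between sets. Genes were called at an adjusted p under 0.05 (Benjamini-Hochberg over all genes tested). CPM used plain library totals. Ratios used counts plus 0.5. Fits were tested on simulated data with the same spread for all genes and no sets of replicates, so the split of the Ezh1 libraries is not covered. For the Ezh1 comparison the limit on false calls was missed in the first draw. It was then read as a mean over several draws. Alternatives were other scalings, DESeq2 1.42.0, no filter, smaller fits, subsets of libraries and a replicate block. Same-numbered Ezh1 libraries deviated together (r from 0.842 to 0.917 in all 4 pairs). Each pair also shares a set, replicates 1 and 2 or replicates 3 to 5. Shared number and shared set cannot be told apart here, so it is not shown that the numbers pair these samples. Depth of 12.1 M to 38.5 M counts leaves levels under 1 CPM on few counts.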

Additional observations from a re-analysis of the deposited data

Results flagged for a closer look

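For Gabra2 and Gabrb2 the change differed between settings, by edgeR's test of the difference itself. The change from DIV0 to DIV5 minus the change from Math1 TRAP at P7 to Neurod1 TRAP at P12 was -2.62 for Gabra2 and -2.33 for Gabrb2 on the log2 scale. Of 42 checks for a library far from its group, 0 stood out. These were made in the TRAP and Ezh1 groups only, since the inputs and other cultures hold too few libraries. The check looks for a lone library and cannot flag a group that splits into sets.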

How the results depend on the processing

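Of 671 values of single members under alternatives, 633 kept direction and side of the threshold. With DESeq2 the count of members lower under UNC1999 was 0, and 0 to 1 when libraries were left out. The count of members rising more in culture than in TRAP was 1, Gabrb1, with library-size scaling, DESeq2 size factors and the replicate block, and 0 to 1 when libraries were left out. In that order of settings, 5420, 4988 and 4254 of all genes were called as rising more in culture. Under the replicate block the 4 TRAP ratios were 7.25, 4.49, 2.40 and 2.91 with adjusted p = 0.188 (exact sign-flip test, which cannot pass with so few pairs).

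Directions that turned belonged to values that were not called. Gabrb1 from P7 to P21 was 0.00 with either DESeq2 setting and -0.12 to 0.01 when libraries were left out. Under UNC1999, Gabrb1 was 0.00 without a filter and -0.04 to 0.03 when libraries were left out, and Gabra5 -0.30 to 0.03. Gabra5 from DIV0 to DIV2 was -1.48 to 0.26. In cKO the replicate block gave 0.00 for Gabra2 and -0.07 for Gabrd, and replicates 1 and 2 alone, a choice made after seeing the data, gave 0.52 for Gabra2, 0.06 for Gabra5, -0.03 for Gabra6 and -0.25 for Gabrd. Leaving out libraries gave -0.36 to 0.08 for Gabra2, -0.08 to 0.05 for Gabra5 and -0.11 to 0.22 for Gabrd in cKO, and -0.26 to 0.06 for Gabra5 in UNC1999 minus cKO. For culture minus TRAP, Gabra6 was -0.01 with the block and -0.98 to 2.55 when libraries were left out, and Gabrd -1.23 to 0.03. The causes were not tested.

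UNC1999 called 1016 genes higher and 883 lower with edgeR, and 493 and 453 with DESeq2. Library-size scaling took the share of higher calls from 49.8% to 35.7% for P21 against P12 and from 46.6% to 57.4% for DIV5 against DIV2. It shifted the median of all genes by -0.15 and -0.17 for P21 against P12 and P7, and by 0.11 to 0.16 for DIV5 against DIV2 or DIV0 and for culture minus TRAP. Same-numbered TRAP (r from -0.468 to 0.281) and culture libraries (-0.226 to 0.114) shared only a number. A crossed block for DIV5 against DIV2, added after seeing the data, called 5 members higher and 2 lower, the counts of the main fit. In the main fit 31.1% of all genes were called higher and 35.7% lower. The replicate block changed no other count of members. The P12 to P21 step of Gabra6 depended on the tool, as given above. That step of Gabrb2 was called by DESeq2 and also by edgeR under other settings. These were DESeq2 size factors (adjusted p = 0.0469), only the groups compared in the fit (0.00285) and a fit with a library left out (0.0409). The first step of Gabra2 was likewise called by edgeR with only the groups compared (adjusted p = 0.0393) and with a library left out (0.0456).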
